A study of Mus musculus with 7 samples.

Results

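The regions described were the start sites of long intergenic noncoding RNA (lincRNA) genes in muscle stem cells (MuSCs). They were taken from GENCODE release M21 on mouse build mm10 as the 5′ ends of genes of type lincRNA on chromosomes 1 to 19, with 1 kb on either side, where the start lay more than 3 kb from every protein-coding transcript start. Of 5209 such genes on these chromosomes, 4681 met the rule and 528 lay within 3 kb of a coding start, and the 4681 windows were part of 51229 gene starts of all types. The windows of 242 members overlapped the window of another member, so that the 4681 windows formed 4559 separate loci. The series held 4 ATAC-seq libraries, which mark open chromatin by transposase insertion, and 3 CUT&Tag libraries, in which an antibody directs the transposase to the DNA around its target. ATAC was done on MuSCs sorted from uninjured hind limb (0 h) of Control mice and of TRF2KO mice, with 2 libraries of each genotype. TRF2KO stands for tamoxifen-induced deletion of floxed TRF2 by a Cre driven from Pax7 in MuSCs of adult mice on a C57BL/6 background, so that the deletion was limited to cells that had expressed Pax7. The genotype field of all 4 ATAC libraries reads Wildtype, and the groups were taken from the library titles. CUT&Tag was done with a TRF2 antibody (2 libraries) or IgG (1 library) on MuSCs of mice with Pax7 Cre and TdTomato alleles after notexin injury of the muscle. The labels place this injury 3 days earlier, whereas the methods give a shorter time.

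Most lincRNA genes are transcribed from promoters of their own by RNA polymerase II and are spliced, but they are shorter, weaker and more restricted to particular cell types than coding genes, and many arise at or near enhancers. Coding promoters often lie in CpG islands, stretches in which the CG dinucleotide has escaped loss. TRF2, encoded by Terf2, is a shelterin protein that binds the double-stranded TTAGGG repeats of telomeres and protects chromosome ends, and it has been found at sites within chromosomes as well, including sequences able to fold into G-quadruplexes (G4), which are 4-stranded structures built from runs of G. MuSCs express Pax7 and lie beside the fibres, where they rebuild muscle after injury.

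The start of Neat1, which makes the scaffold RNA of nuclear paraspeckles, is shown because it had the strongest ATAC peaks among the known lncRNAs. These are 100 bases before and 50 bases from the annotated start, on GRCm38, with the TATAAA element in capitals.
Neat1 (chr19:5845429-5845578, minus strand): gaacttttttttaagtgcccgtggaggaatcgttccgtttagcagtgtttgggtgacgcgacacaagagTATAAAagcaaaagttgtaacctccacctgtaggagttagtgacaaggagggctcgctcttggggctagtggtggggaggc
Its TATAAA began 31 bases before the start. TATAAA between 40 and 20 bases before the start was found at 71 of 4681 members (1.52%) and at 10 of the 848 members open in all 4 ATAC libraries (1.18%), against 2.48% of coding starts and 0.993% of open coding starts. Meg3, 2610035D17Rik and Gm38991 were among the other 9 open members with it.

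G4 motifs are shown for 4 members whose window had a TRF2 peak in both TRF2 libraries, because they lay in the part shared by both TRF2 peaks. Of these, 3 were among the 10 members with the strongest TRF2 peaks, and D730003I15Rik was added after its values were seen. The motif searched on both strands was 4 runs of at least 3 G with 1 to 7 bases of any kind between them, and the G runs are in capitals (GRCm38).
Gm26901 (chr1:7398062-7398087, minus strand): GGGtgtgtgtGGGGGaGGGGGGGGGG
4932412D23Rik (chr16:42875952-42875967, plus strand): GGGGcGGGcGGGaGGG
Gm31793 (chr10:130542079-130542113, plus strand): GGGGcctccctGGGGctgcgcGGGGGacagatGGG
D730003I15Rik (chr1:191224660-191224684, plus strand): GGGtcgtgatGGGtttGGGtaaGGG
Such a motif lay in the shared part of 15 of 80 TRF2-bound members whose TRF2 peaks overlapped each other (18.8%), and the median shared part was 274 bp. Of the 15, 3 were Gm26917, Gm42418 and AY036118, which also had IgG peaks and whose values are uncertain, and whose shared parts were long, 3741 bp for the first pair, which share 1 part, and 1137 bp for AY036118. Without these 3 it was 12 of 77 (15.6%), with a median of 261 bp. Regions of 273 bp centred on the ATAC summit held it at 71 of 656 open members with no TRF2 peak (10.8%) and at 25.9% of open coding starts.

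Peak centres are shown for 6 members whose ATAC fold differed between the genotypes, chosen after their values were seen as those with the smallest p that held an AP-1 motif or a CAGCTG motif. AP-1, made of Fos and Jun proteins, is a factor of the early activation response, and it recognises TGAGTCA, which was searched on both strands. A form of the E-box that reads CAGCTG on both strands is bound by myogenic factors such as MyoD and Myf5. Each run is 200 bases around the ATAC summit on GRCm38, in the direction of the lincRNA gene, with these motifs in capitals. The first 3 were higher and the last 3 were lower in TRF2KO. The summits of 5430431A17Rik lay 1066 to 1118 bp downstream of the start in the 4 libraries, outside its window, and those of the other 5 lay inside.
Gm49632 (chr17:7644673-7644872, plus strand): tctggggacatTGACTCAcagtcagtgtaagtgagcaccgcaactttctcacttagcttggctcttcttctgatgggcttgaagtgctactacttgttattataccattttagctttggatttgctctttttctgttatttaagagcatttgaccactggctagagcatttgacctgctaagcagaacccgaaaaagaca
AC162612.1 (chr19:21104712-21104911, plus strand): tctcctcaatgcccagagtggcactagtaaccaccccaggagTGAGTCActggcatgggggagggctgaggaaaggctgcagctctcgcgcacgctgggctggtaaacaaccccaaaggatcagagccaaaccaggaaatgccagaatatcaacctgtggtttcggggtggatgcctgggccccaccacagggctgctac
3100003L05Rik (chr7:124709240-124709439, minus strand): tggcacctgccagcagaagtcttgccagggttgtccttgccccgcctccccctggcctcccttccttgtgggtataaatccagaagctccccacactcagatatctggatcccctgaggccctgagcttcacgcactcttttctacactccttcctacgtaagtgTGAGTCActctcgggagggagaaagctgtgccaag
5430431A17Rik (chr7:44474556-44474755, plus strand): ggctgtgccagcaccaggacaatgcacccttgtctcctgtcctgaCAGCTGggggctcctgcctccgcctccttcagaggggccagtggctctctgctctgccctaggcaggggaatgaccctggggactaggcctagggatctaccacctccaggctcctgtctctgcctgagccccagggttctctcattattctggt
B930092H01Rik (chr9:61293858-61294057, minus strand): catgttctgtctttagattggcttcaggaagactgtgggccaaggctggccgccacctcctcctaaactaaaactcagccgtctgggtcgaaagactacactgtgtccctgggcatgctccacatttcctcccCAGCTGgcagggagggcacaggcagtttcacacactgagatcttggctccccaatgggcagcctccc
Gm12524 (chr3:108166600-108166799, plus strand): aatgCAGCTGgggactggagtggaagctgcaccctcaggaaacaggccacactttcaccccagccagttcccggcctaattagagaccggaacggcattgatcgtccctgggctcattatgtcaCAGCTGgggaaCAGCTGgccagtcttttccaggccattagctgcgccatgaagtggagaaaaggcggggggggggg

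The ATAC peak lists, called by MACS for each library, held 82556 to 98558 autosomal peaks, with Control replicate 2 the longest. The TRF2 lists held 12066 and 15223 peaks, and the IgG list held 640. Each peak carries a fold, the enrichment at its summit over local background. The files give no total read counts, but the fragments piled up at a summit could be recovered from the fold and its p for all but the strongest peaks, with medians of 36 to 40 in the 4 ATAC libraries and of 9 in both TRF2 libraries at members. The start of Terf2 itself had Control ATAC folds of 54.3 and 48.4, and both TRF2KO folds were lower (21.5 and 18.6), so the groups did not overlap and the order matched the labels. Where the deleted part of Terf2 lies relative to this peak is not given in the sources used here. All 10 MuSC marker genes, among them Pax7, Myf5 and Calcr, were open at their start in the 4 ATAC libraries. Among markers of other cells, Ptprc, Itgam, Cd3e and Csf1r were open in none, Cdh5 and Ly6a in 1 library, and Pecam1, Pdgfra, Myh11 and Acta2 in all 4. In sorted cells, a lower peak from fewer open cells and from less opening per cell cannot be told apart.

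About 1 in 5 lincRNA windows was open, far fewer than at coding genes. A peak overlapping a window by at least 1 bp was found at 1048 members (22.4%) in Control replicate 1 and at 1093 (23.3%) in replicate 2, and at 1040 (22.2%) and 1008 (21.5%) in TRF2KO replicates 1 and 2. Tiles of 2 kb over the same chromosomes held a peak at 8.9% and 9.79% in Control and at 8.46% and 8.3% in TRF2KO, and coding gene starts at 64.3%, 65.8%, 64.5% and 64.5% in the same order. Peaks in all 4 libraries were found at 848 members (18.1%, exact 95% binomial interval 17 to 19.2, which covers counting error only). The same share was 61.9% of 20807 coding gene starts, 66.1% of lincRNA starts within 3 kb of a coding start and 6.71% of all 2-kb tiles of these chromosomes. No peak in any library was found at 3382 members (72.2%), against 31.9% of coding starts and 88.2% of tiles.

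**Figure D1:**
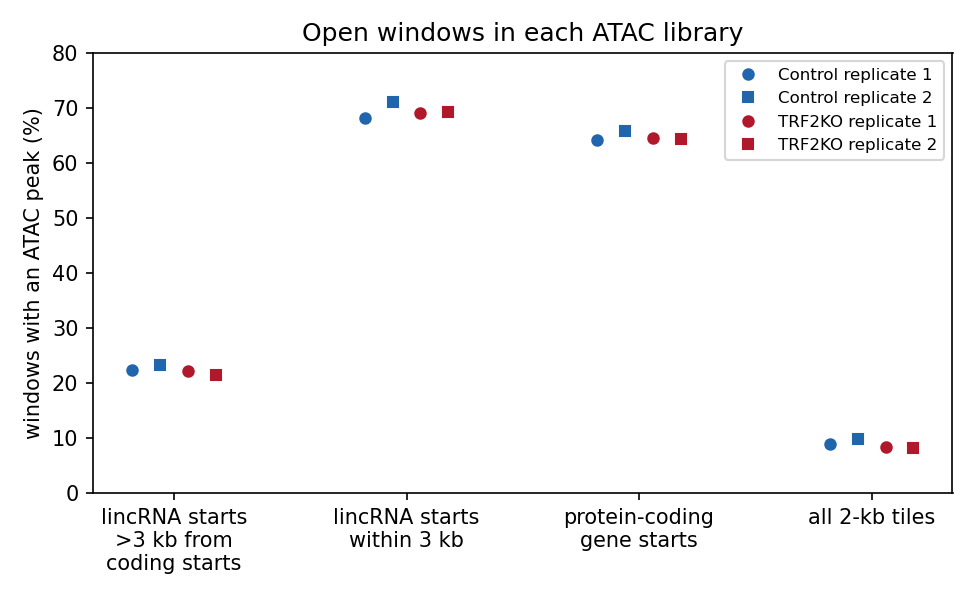
Share of windows with an ATAC peak (y axis, percent) in each of the 4 ATAC libraries (points) for lincRNA starts more than 3 kb from coding starts, lincRNA starts nearer to them, coding gene starts and 2-kb tiles. The 4 libraries sat between 21.5% and 23.3% for the distant lincRNA starts, below both kinds of start near or at coding genes and above the tiles.

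The share of open members was lower in both TRF2KO libraries than in both Control libraries, with 2 libraries a genotype too few for the test to pass a threshold of 0.05. It was 22.9% ± 0.680 in Control and 21.9% ± 0.483 in TRF2KO (SD, n = 2), a difference of -0.993 percentage points against a pooled SD of 0.590 (two-sided exact permutation test, p = 0.33, the smallest that 2 against 2 libraries can give). Coding starts differed by -0.519 points (exact permutation p = 1) and tiles by -0.964 points (exact permutation p = 0.33). Without Control replicate 2 the difference was -0.513 points and without TRF2KO replicate 2 it was -0.652. With each list shortened to its strongest peaks at the length of the shortest list, it turned to 0.267 points at members. Both Control lists were longer than both TRF2KO lists.

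ATAC peaks at lincRNA starts were weaker and less centred than those at coding starts. Open members had median folds of 13.5, 11.2, 12.5 and 11.6 in Control replicates 1 and 2 and TRF2KO replicates 1 and 2, against 46.5, 40.3, 48.9 and 44.9 at coding starts in that order. Ranked within its own list, the median member peak stood at the 62nd to 66th percentile, whereas the median coding peak stood at the 88th to 89th. The summit lay within 250 bp of the gene start at 39.1% to 41.3% of open members and at 71.1% to 72.6% of open coding starts. A peak could thus reach a window from outside, and with the summit required inside the window 722 members were open in all 4 libraries.

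**Figure D2:**
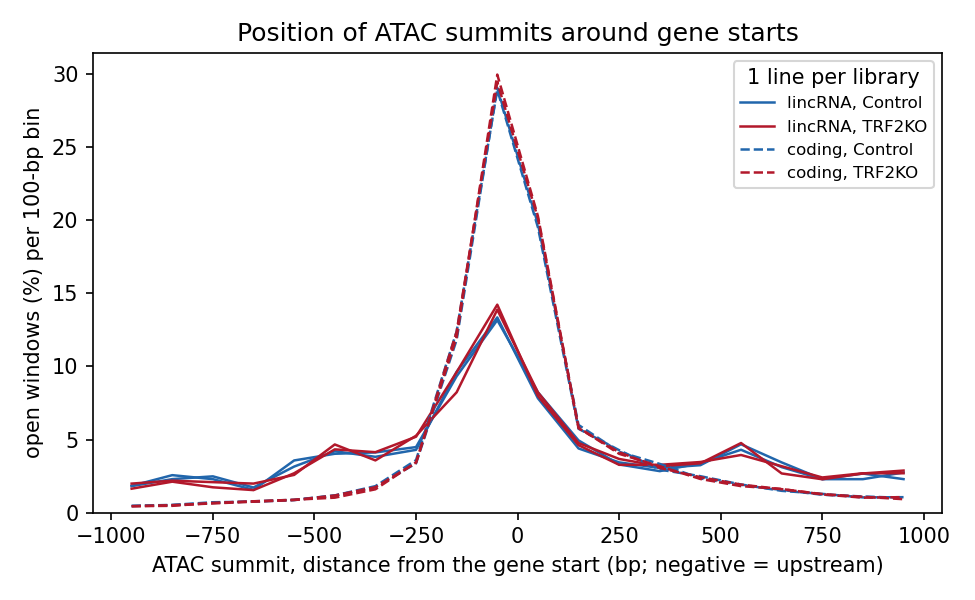
Position of the strongest ATAC summit relative to the gene start (x axis, bp, negative is upstream) as the share of open windows in bins of 100 bp (y axis), with 1 line for each library, lincRNA starts solid and coding starts dashed. All lines peaked just upstream of the start, and the lincRNA lines were lower at the centre and higher at the edges than the coding lines.

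Open members differed from closed members in base composition and in distance to coding genes. The median GC content of the window was 48.4% at the 848 open members and 44.0% at the 3382 closed ones, against 45% over all members and 51.4% over coding starts. A ratio of observed to expected CG of at least 0.6, as in CpG islands, was rare, at 80 members (1.71%) against 35.0% of coding starts, and 63 of those 80 members were open in all 4 libraries. The open share rose from 8.67% of members with a ratio under 0.2, through 21.9% and 44.9%, to 77.9% at 0.6 to 0.8 and 83.3% (10 of 12) at 0.8 and over. Coding starts in the same order of bands were open at 7.11%, 36.5%, 86.8%, 95.5% and 97.5%. With distance from the nearest coding start the open share fell from 29.4% at 3 to 10 kb, through 22.4%, 19.5% and 13.4%, to 4.09% (13 of 318) beyond 500 kb. These shares are descriptions of windows, which are not replicates.

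The open share varied less with position inside or outside coding genes. Of the members, 4467 (95.4%) started outside every coding gene and were open at 17.9%, 165 started inside a coding gene on the opposite strand (21.8% open), and 49 inside one on the same strand (24.5% open). Chromosome 17 had the highest open share, 66 of 209 members (31.6%), and chromosome 8 the lowest (12.8%). At the 3-kb limit of the rule, Gm45868 (3019 bp from the nearest coding start) and Gm40518 (3058 bp) were closed and 2610037D02Rik (3023 bp, beside Arid2) was open with TRF2 in both libraries. Just outside the limit, Gm26732 (2994 bp) and Gm20045 (2968 bp) were closed, and Gm45069 (2969 bp) was open.

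Well-studied lncRNA genes were mostly open. Of 60 listed symbols, 25 were members, and 19 of these (76.0%) were open in all 4 libraries and 5 in none, against 18.1% open over all members. The list was chosen for known genes, with earlier results of these data known.

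Among RNAs of nuclear bodies, Neat1 had ATAC folds of 176 and 159 in Control and 189 and 188 in TRF2KO. Malat1, the abundant RNA of nuclear speckles, had 109 and 89.4 in Control and 114 and 107 in TRF2KO. At Neat1 both TRF2KO libraries were above both Control libraries in the deposited folds, but after normalisation in the fit described below the limma adjusted p was 0.948, and at Malat1 the groups overlapped. Pvt1, a neighbour of the growth gene Myc, gave 29.0 and 30.8 against 32.2 and 33.1. Miat, a nuclear RNA best known from neurons, had weak peaks in 1 library of each genotype (3.68 and 3.18).

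Of 3 imprinted members, 2 were open. Meg3, expressed from the maternal chromosome, had folds of 47.4 and 41.6 in Control and 41.9 and 46.1 in TRF2KO. H19, a maternally expressed RNA that is abundant in embryonic muscle, had 9.90 and 9.72 against 10.5 and 7.49. In both cases the genotypes overlapped, and Mirg, further along the Meg3 cluster, was closed in all 4 libraries.

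The 4 members on the list of growth and p53 genes were all open. Trp53cor1 (lincRNA-p21), a target of p53 that starts 11.8 kb from its coding neighbour Cdkn1a, a cell cycle inhibitor, had folds of 116 and 82.4 in Control and 150 and 144 in TRF2KO. Both TRF2KO libraries were above both Control libraries, and this was the only known lncRNA past the threshold in the same fit (log2 difference 0.47 ± 0.07 SE, limma adjusted p = 2.96e-04). Lncpint, another RNA induced by p53, had 33.1 and 35.5 against 38.7 and 40.2, and it was the only known member with a TRF2 peak in both TRF2 libraries (folds 6.99 and 4.41). The limma adjusted p for Lncpint was 0.213. 2900097C17Rik had folds of 20.3 to 22.7 and Epb41l4aos had folds of 46.3 to 55.8.

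Developmental RNAs split. Hotair, made within the HoxC cluster, had 23.5 and 19.3 in Control and 21 and 14.8 in TRF2KO. Carmn, an RNA of smooth and cardiac muscle, had 75.5 and 55.4 against 74.8 and 66.7. Halr1, at the HoxA cluster, and Rmst, an RNA of neural progenitors, were closed in all 4 libraries.

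Of 10 hosts of small RNAs, 8 were open. The snoRNA hosts Snhg6 (62.1 to 78.7), Snhg12 (56.1 to 69.5) and Snhg20 (22.5 to 26.3) and the miRNA host Mir17hg (53.3 to 56.5) were strongest, and Mir155hg, known from activated immune cells, gave 15.0 to 19. Mir670hg (5.94 to 10.7), the neural Mir124a-1hg (4.12 to 6.30) and Mir9-3hg (2.99 to 4.57) had weak peaks. Mir142hg, the host of a miRNA of blood cells, and Mir124-2hg were closed in every library.

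**Figure D3:**
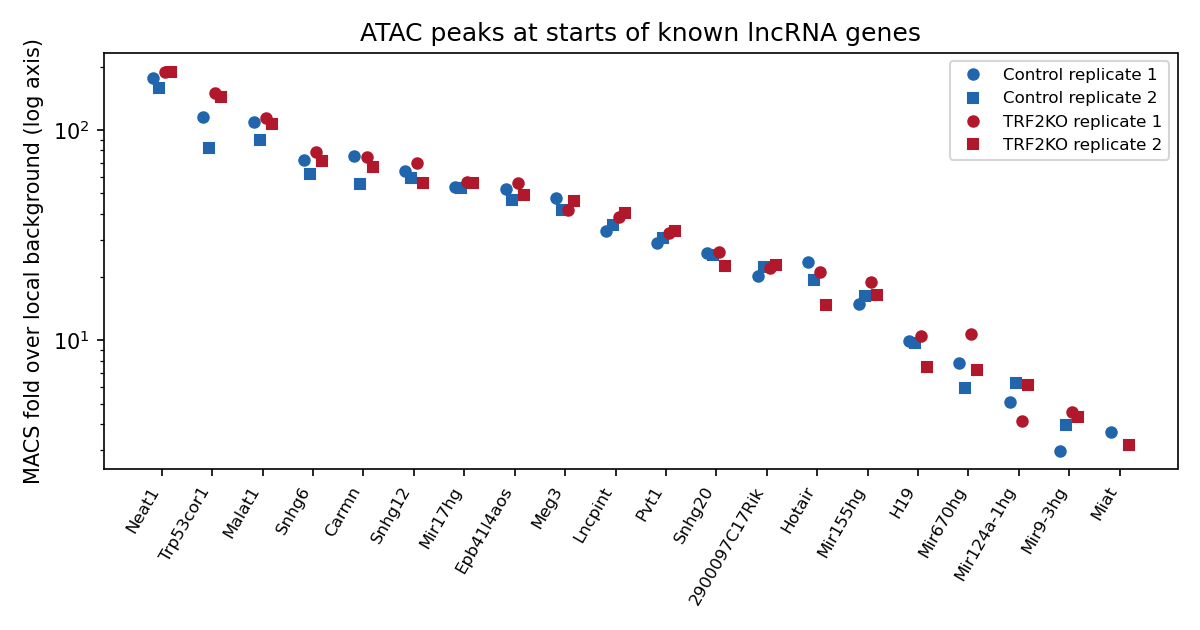
MACS fold over local background (y axis, log scale) of the strongest ATAC peak at the start of 20 known lncRNA genes with a peak in any library, 1 point for each library. Neat1 and Trp53cor1 stood at the top, and the 2 TRF2KO points of Trp53cor1 lay above the Control points.

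The highest ATAC folds of all members were at 3 neighbours on chromosome 17, Gm26917, Gm42418 and AY036118, which shared 1 peak with folds of 2159 and 1823 in Control and 2286 and 2146 in TRF2KO. These 3 windows also had IgG peaks and TRF2 summits of 290 to 448 fragments, and the RefSeq table names Gm42418 as Rn18s-rs5, related to 18S ribosomal RNA, so reads of ribosomal copies elsewhere could be shared with them and their values are uncertain. After them came 4932412D23Rik near Zbtb20 (197 and 158 in Control, 204 and 206 in TRF2KO), AC166654.1 near Sik1 (204 and 168, 198 and 188), Neat1, 6720427I07Rik (168 and 154, 191 and 182) and Gm6410 (177 and 154, 178 and 182). Control replicate 2 was lowest at each of these 5.

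TRF2 peaks were few at lincRNA starts and lay almost entirely in windows that were open in the ATAC libraries. The ATAC libraries came from uninjured muscle and the TRF2 libraries from muscle after notexin injury. Open and TRF2-bound were therefore measured in different cell states. A TRF2 peak was found at 154 members (3.29%) in replicate 1 and at 168 (3.59%) in replicate 2, against 29.8% and 31.3% of coding starts and 1.16% and 1.41% of tiles, and 86 members (1.84%) had it in both, against 23.3% of coding starts and 0.702% of tiles. The replicates shared 55.8% of the members of replicate 1 and 51.2% of those of replicate 2, and 4 of the 86 members had an IgG peak, which leaves 82 (1.75%, against 23.2% of coding starts and 0.679% of tiles). With a MACS -log10 q of at least 5 in both libraries, 36 members were left. Of 848 open members, 82 had TRF2 in both libraries (9.67%), against 37.5% of open coding starts and 9.27% of open tiles, and of 3382 closed members 3 had it (0.0887%), against 0.0602% of closed coding starts and 0.0585% of closed tiles.

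The TRF2 peaks themselves were small. At members with TRF2 in both libraries the median fold was 6.09 and 6.38, with a median of 11 fragments at the summit in each library. Members with a peak in 1 library alone had median folds of 4.95 and 5.07. At this depth a member without a TRF2 peak is one at which none was detectable.

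TRF2 peaks at members went with strong ATAC peaks and with CpG content. Of the 82 open TRF2-bound members, 61 had a mean ATAC fold percentile of at least 80, and the median was 92.0, against 65.0 at open members with no TRF2 peak. These 82 include Gm26917, Gm42418 and AY036118, which had IgG peaks. With CG ratios of 0.646, 1.03 and 1.03, they also count in the top band of ATAC percentile below. Among open members in the top band of ATAC percentile (80 to 100), TRF2 was found in both libraries at 19.9%, against 50.2% of coding starts in that band, and between 60 and 80 at 5.83% against 9.88%. In that top band with an observed to expected CG ratio of at least 0.4, TRF2 was found at 38 of 104 members (36.5%, exact 95% binomial interval 27.3 to 46.6) and at 52.8% of coding starts (51.7 to 53.9). Under a ratio of 0.4 it was found at 23 of 202 members (11.4%, 7.36 to 16.6) and at 19.9% of coding starts (17 to 23). In the top band the shares of the members lay below those of the coding starts in both CpG bands, with separate intervals. In the lower bands the intervals overlapped. These intervals cover counting error only, windows are not replicates, and the band of at least 0.4 has no upper limit. Among all open windows with a ratio of 0.4 to 0.6, TRF2 was found at 16.3% of members and 32.8% of coding starts. At 0.6 to 0.8 it was at 24.5% and 46.4%, and at 0.8 and over at 60% (6 of 10) and 49.7%. Those 6 include Gm42418 and AY036118, neighbours with IgG peaks whose values are uncertain, so the higher share of members there rests partly on them.

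**Figure D4:**
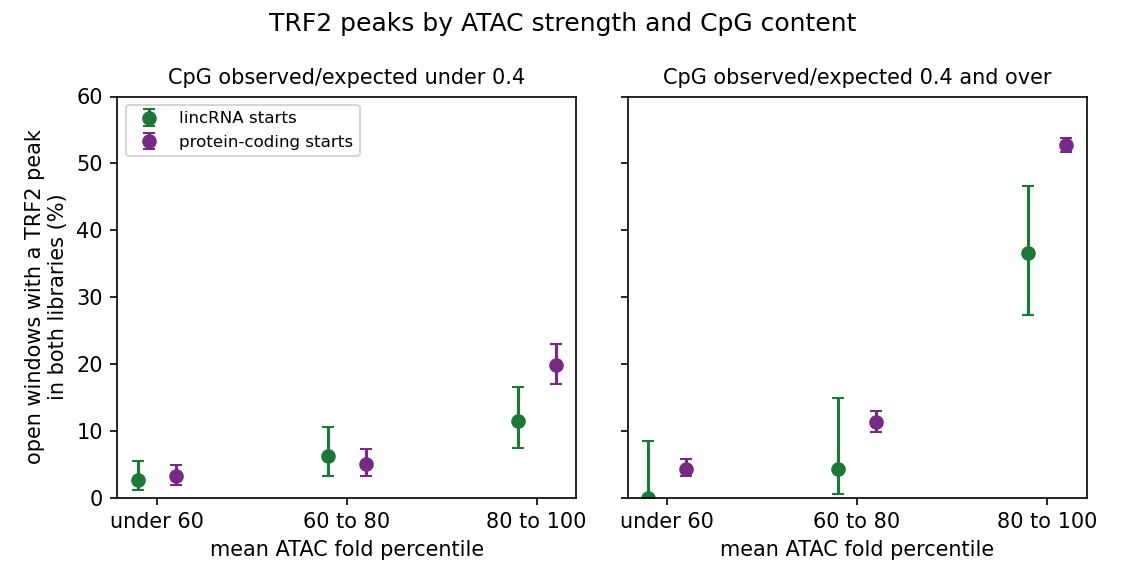
Share of open windows with a TRF2 peak in both TRF2 libraries (y axis, percent, bars are exact 95% binomial intervals) by mean ATAC fold percentile (x axis), for windows with an observed to expected CG ratio under 0.4 (left) and of at least 0.4 (right). In the top percentile band lincRNA starts stood at 11.4% and 36.5%, below the coding starts at 19.9% and 52.8%.

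The strongest TRF2 member was AC166748.2 on chromosome 19, with TRF2 folds of 18.9 and 17.7 and ATAC folds of 154 and 217 in Control and 330 and 245 in TRF2KO. Gm26901 (TRF2 10.5 and 11.9), 4932412D23Rik (12.2 and 10.4), Gm5444 (9.70 and 11.8) and Gm31793 (9.25 and 8.99) followed, and G4 motifs of Gm26901, 4932412D23Rik and Gm31793 are shown above. The next were Gm11527 (9.12 and 8.86), Gm33195 (8.20 and 9.04), Gm6410 (8.55 and 8.58), A230028O05Rik (7.82 and 8.75) and 6720427I07Rik (8.41 and 8.07). Of these 10 members, 9 had ATAC folds above 100 in every library, and Gm31793 had 17.1 to 25.6. The nearest coding start was between 15.6 kb (Gngt2, for Gm11527) and 309 kb (Pcmtd1, for Gm26901) away.

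Only 3 members had TRF2 in both libraries without any ATAC peak. These were 4930520K02Rik (TRF2 5.77 and 6.64, with an IgG peak as well), Gm26561 near Tgif1 (6.59 and 6.81) and AC137585.3 near Atp8b1 (5.16 and 7.20), with 7 to 12 fragments at the summit. Among known lncRNAs, Malat1 (fold 5.98), Carmn (6.18) and Mir17hg (4.41) had a TRF2 peak in replicate 1 alone, and Neat1 had none in either library. Telomere-like repeats of at least 3 TTAGGG units in a row lay in 5 member windows, those of Gm38064, Gm15325, 1700044C05Rik, Gm49472 and Gm28265, and all 5 were closed without TRF2 in both libraries. G4 motifs were found somewhere in the window at 36.4% of all members, 49.5% of open members, 32.3% of closed members and 53.5% of TRF2-bound members, against 56.4% of coding starts. The share in the window was 49.4% at open members without TRF2 and 56.1% at those with TRF2 in both libraries. Over the 300 bases from 250 before to 50 after the start it was 13.9% and 22.0%, against 14.5% of all open and 6.30% of closed members, and in the 200 bases around the ATAC summit it was 7.93% and 14.6%.

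Few members were open in 1 genotype alone. Peaks in both Control libraries and neither TRF2KO library were found at 39 members (0.833%), against 0.394% of coding starts and 0.513% of tiles. Peaks in both TRF2KO libraries and neither Control library were found at 26 members (0.555%), against 0.231% and 0.14%. The folds of these peaks were low, with a median of 4.69 for the Control-only and 3.99 for the TRF2KO-only members. No such member had TRF2 in both libraries. GoPeaks or SEACR, the study's other peak callers, had a region in the opposite genotype at 12 of the 39 and 9 of the 26.

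The strongest of these members showed how a window's edge enters the call. Gm13373 (48.3 and 37.3 in Control), Gm44734 (22.6 and 3.60) and Gm14268 (10.8 and 9.90) were Control-only by the rule, but TRF2KO peaks overlapped the same peaks outside the window. This held for 8 of the 39 Control-only and 3 of the 26 TRF2KO-only members. With both summits inside the window and no overlapping peak in the other genotype, 27 Control-only and 21 TRF2KO-only members were left, with mean folds of at most 5.74 and 6.15. Chosen after their values were seen, the best of these were Gm33299 (6.44 and 5.04) and Gm47733 (5.75 and 5.58) for Control and 4930597A21Rik near Ebf1 (5.95 and 6.36) and Gm29282 near Ier5 (6.63 and 5.45) for TRF2KO. This choice used MACS peaks alone, and SEACR had a region in the Gm29282 window in both Control libraries. Of the remaining named members, 1700063D05Rik (9.67 and 9) and Gm11690 (7.59 and 7.20) in Control and Gm43821 (8.46 and 7.26) in TRF2KO were edge cases too. A peak of the other genotype overlapped the same peak outside the window at each of them. No such overlap was found at the TRF2KO-only Gm49793 (5.26 and 5.45) and Gm32250 near the MuSC surface gene Cd34 (6.40 and 5.45). SEACR had a region at Gm49793 in Control replicate 2. Without any one library, the counts ran from 64 to 121 for Control-only and from 40 to 75 for TRF2KO-only. Leaving out a library takes a condition out of the rule, so these counts could only stay or rise.

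At windows open in both genotypes, the ATAC fold was compared in a limma fit over 60354 merged regions with a peak in all 4 libraries. In that fit 2855 regions (4.73%) were higher and 4326 (7.17%) lower in TRF2KO at an adjusted p under 0.05. Of 821 members whose own peak gave the region's fold, 66 (8.04%) were higher and 43 (5.24%) lower, and their median log2 difference was 0.06 against 0.02 over all regions. The 821 members lay in 791 regions, so some regions were counted more than once among members. Coding starts were higher at 5.45% and lower at 1.14%. With all 4 summits inside the window, 58 of 689 members (8.42%) were higher and 34 (4.93%) lower. Without any one of the 4 libraries, limma called no region and no member, with a smallest adjusted p of 0.311 among members, and between 77 and 86 members higher and between 46 and 71 lower had an unadjusted p under 0.05. All 109 called members kept the sign of their difference in each of these fits. These fits reuse the libraries that gave the calls. The deposited folds of 66 higher and 42 lower members did not overlap between genotypes, so the sign could hardly change and adds no separate support. When each library was centred on its median instead, which moves the median of all regions to 0.10, 185 members were higher and 40 lower (22.5% and 4.87%, against 18.6% and 7.59% of all regions and 51.5% and 0.699% of coding starts), and 98 of the 109 calls remained on their side. With peaks shared by 3 callers alone, 34 of 367 members were higher and 34 lower (9.26% each, against 6.62% and 9.42% of regions), so the larger number of higher members did not hold there. Some marker genes also differed between the genotypes in the deposited folds. Acta2, a gene of smooth muscle and myofibroblasts, had 51.8 and 43.7 in Control and 25.8 and 26.3 in TRF2KO, and Itga7, a surface integrin of MuSCs, had 73.4 and 68.0 against 35.0 and 56.1. Cd34 had 23.0 and 20.2 against 28.4 and 23.2, and at the remaining MuSC markers and at Pecam1, Pdgfra and Myh11 the genotypes overlapped. The part of other cells in the genotype differences was not tested.

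Among the members that fell most clearly, 2810404F17Rik near Ets2 had folds of 31.1 and 28.6 in Control and 12.6 and 11.3 in TRF2KO (log2 difference -1.21 ± 0.14 SE, limma adjusted p = 1.22e-05). Its summit lay about 1.2 kb upstream of the annotated start. AC131323.2, with summits 158 to 194 bp upstream of the start, had 40.7 and 38.2 against 21 and 18.2 (-0.95 ± 0.12). 5430431A17Rik near Josd2, with its summits outside the window as given above, had 58.9 and 56.9 against 35.9 and 33.4, Gm36799 near Trim29 had 41.9 and 33.1 against 21 and 20.4, and G630093K05Rik, with its summit at the start and Id4 as the nearest coding gene, had 38.2 and 26.1 against 17.6 and 11.3. At each of these 5, both TRF2KO libraries were below both Control libraries.

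Among the members that rose, Gm12511, 30.8 kb from the start of Klf4, a gene for a zinc-finger factor, had folds of 15.6 and 17.8 in Control and 44.4 and 44.3 in TRF2KO (1.47 ± 0.13, limma adjusted p = 7.02e-07). Gm13067 had 8.75 and 6.66 against 24.2 and 20 (1.66 ± 0.18), the largest rise among called members. Gm42626, 4.23 kb from a start of Auts2, had 4.37 and 5.22 against 12.4 and 15.4 (1.65 ± 0.22). Gm45218 had 70.9 and 55.3 against 106 and 112, and Gm49632 had 17.3 and 14.0 against 28.4 and 26.3. Both TRF2KO libraries were above both Control libraries at all 5, and Gm45218 had a TRF2 peak in 1 TRF2 library and the other 4 had none.

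**Figure D5:**
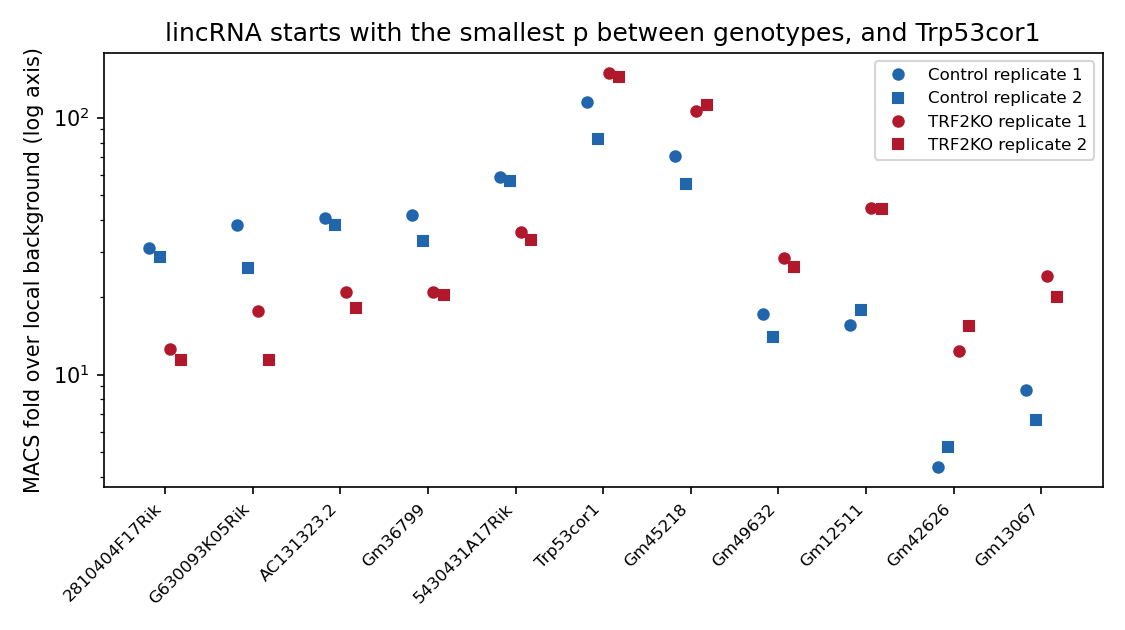
MACS fold over local background (y axis, log scale) at the 5 members with the smallest p in each direction and at Trp53cor1, ordered by log2 difference, 1 point for each library. The TRF2KO points lay below the Control points at 5 members and above them at the other 6.

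Of 81 tested members with TRF2 in both libraries, 6 (7.41%) were called higher in TRF2KO, near the 8.04% of all 821 tested members and above the 4.73% of all regions, and 0 were called lower by limma, against 5.24% and 7.17%. At an unadjusted limma p under 0.05, 17 of the 81 were higher and 3 lower, against 134 and 87 of all 821 tested members. Over all 60354 regions, 7643 were higher and 8164 lower at that p. Whether the TRF2-bound members differ from the others in these shares was not tested. The 6 were AC162612.1 (19.8 and 16.2 in Control, 28.6 and 30.2 in TRF2KO), 9430037G07Rik (31.5 and 31.3, 43.5 and 44.0), AC166748.2, 4930580E04Rik near Kmt2e (66.3 and 59.0, 91.0 and 87.6), Gm11734 (54.8 and 46.8, 68.4 and 60.1) and Gm20732 near Zfat (94.1 and 87.5, 124 and 117). The median log2 difference was 0.04 over the TRF2-bound members and 0.06 over members with no TRF2 peak, so the 2 sets lay close together. Most TRF2-bound members, 75 of 81, did not pass the threshold.

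The peak centres of called members differed in the 2 motifs shown above. AP-1 (TGAGTCA on either strand) lay within 200 bases around the summit at 15 of 66 members that were higher in TRF2KO (22.7%), at 2 of 43 that were lower (4.65%) and at 81 of 712 not called (11.4%). Over all tested regions the shares in the same order were 19.3%, 8.62% and 11.0%. CAGCTG lay at 13 of 66 higher members (19.7%), 18 of 43 lower members (41.9%) and 189 of 712 not called (26.5%), and over all regions at 20.3%, 54.8% and 27.0%. Open coding starts held AP-1 at 2.93% and CAGCTG at 13.3%. The G4 motif lay at 9.09% of higher, 6.98% of lower and 8.43% of not called members, a smaller spread. Over all regions its shares in that order were 12.2%, 4.28% and 8.53%. The order of the shares was the same at members and over all regions, of which the members are a part. Median GC content was 54.3%, 54.0% and 54.0% at higher, lower and not called members, and the median of the mean ATAC fold was 25.1, 23.7 and 16.3. Among the 5 members of smallest limma p in each direction, only Gm49632 (AP-1) and 5430431A17Rik (CAGCTG) held AP-1 or CAGCTG within these 200 bases. Gm12511, Gm13067, Gm42626, Gm45218, 2810404F17Rik, AC131323.2, Gm36799 and G630093K05Rik had neither.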

How the data were processed

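The 7 libraries were grouped by title. Per the methods of the study, reads were aligned to mm10 with Bowtie2, duplicates were removed and unique proper pairs were kept; no shift of ATAC reads is stated, so summits may be off by a few bases. The authors called peaks with MACS, SEACR and GoPeaks. The deposited MACS lists give the fold over local background as a linear ratio, with the authors' -log10 p and -log10 q. The deposited MACS score and the deposited SEACR signal were not used in tests. The deposited consensus lists of 41742 Control and 41471 TRF2KO regions, named by genotype, were taken as pooled.

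Windows, overlaps, exact binomial intervals and exact permutation tests used Python 3.11.15 with SciPy 1.17.1, and motifs were read from GRCm38 with pysam 0.24.0. Overlap was at least 1 bp. For the genotype comparison, peaks of the 4 lists were merged into 120444 regions. The log2 folds of the 60354 regions with a peak in all 4 lists (highest peak in each) were quantile-normalised and tested with limma 3.58.1 (trend, R 4.3.3), with p-values adjusted by Benjamini-Hochberg over all regions and a threshold of 0.05. With no filter on low folds, a region without a peak in some library was not tested. On simulated data for this comparison with 60354 regions, all 100 differences of log2 size 2 and 90.0% of those of size 1 were recovered, with 16 false calls. The simulated noise depended on the level of the fold alone, and only these sizes were simulated. Smaller differences, such as the smallest rise among called members (log2 0.238), were not covered.

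The 25 known lncRNAs were named from a list. The other members named were the 10 strongest TRF2 members without an IgG peak, the 8 with the strongest ATAC peaks, the 5 strongest open in each genotype alone, the 5 of smallest limma p in each direction and the 3 nearest to either side of the 3-kb limit. The members and lists were chosen with earlier results of these data known. Some markers and 1 sequence are not reported here.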

Additional observations from a re-analysis of the deposited data

How the results depend on the processing

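The difference in the share of open members kept its sign in all alternatives (windows, exclusion, caller, stricter q, single libraries left out) except with lists of equal length, where it was 0.267 points. It ran from -0.513 to -1.47 points without any one library (-0.513 without Control replicate 2 and -0.652 without TRF2KO replicate 2), and it was -1.55 with 2 kb on either side. Replicate numbers did not pair the libraries (r = 0.0107 between the deviations of same-numbered libraries over 60354 regions), and a replicate block gave -0.993 points for the share, 3495 higher and 4909 lower regions, and 76 and 48 members.

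The 848 members open in all 4 libraries became 464 with SEACR. Control-only members numbered 64 to 121 and TRF2KO-only members 40 to 75 without any one library, and TRF2KO-only members numbered 12 with a -log10 q of at least 5 and 8 with GoPeaks. The 86 TRF2 members numbered 36 at that q, 236 with a peak in either library, and 154 to 168 without one of the libraries. Counts with a library left out could only stay or rise, since a condition of the rule is dropped. The remaining alternatives, including 2 chosen after seeing the data (overlapping windows counted together, and the chromosome 17 members with IgG peaks left out), kept these counts within 1.5 times.

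In limma, median centring gave 11196 higher regions and 185 higher members, and peaks shared by 3 callers gave 1582 higher and 2253 lower of 23906 regions and 34 higher and 34 lower of 367 members. Leaving out any one library gave 0 calls in either direction, with 3973 to 4500 regions higher and 4356 to 5796 lower at an unadjusted p under 0.05. An arm of 1 library was assumed to vary like the other. TRF2 summits of few fragments and 2 libraries a genotype limit what could be detected.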
